A study of Mustela putorius furo with 9 samples.

Results

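Translation initiation factors are the proteins that bring the ribosome, the initiator tRNA and an mRNA together at a start codon. The genes described here are all rows of the expression table whose symbol begins with EIF, apart from the 4 EIF2AK rows, which encode kinases. That rule took 45 of the 28494 genes in the table, namely 4 of class EIF1, 10 of EIF2, 11 of EIF3, 15 of EIF4, 4 of EIF5 and 1 of EIF6. It used names only and no measured value. EIF4E1B, a cap-binding protein gene, was listed at 0 in every library, and the other 44 passed the minimum of 1 FPKM in at least 3 libraries and were tested. FPKM, the unit of all levels below, corrects fragment counts for the length of the gene and the size of the library. Levels were compared between genes and between libraries on that scale, and no further normalization was applied unless stated. Comparisons between genes rest on the listed gene lengths.

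In the textbook scheme, EIF2 carries the initiator tRNA to the small ribosomal subunit, where EIF1, EIF1A, EIF3 and EIF5 also bind. EIF4E holds the mRNA cap, EIF4G bridges it to the ribosome, and EIF4A unwinds the leader so that the start codon can be found, after which EIF5 and EIF5B release the factors and join the large subunit. In stressed cells the process is known to be braked by phosphorylation of EIF2, which blocks its recharging by EIF2B, and by the EIF4E-binding proteins, which keep EIF4E away from EIF4G when the kinase mTOR is inactive. Both brakes act on proteins, which RNA sequencing does not measure.

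RNA was sequenced from NBL-7 cells, described in the labels as lung epithelial cells of the ferret (the same name is in use for a mink lung line), in 3 groups of 3 libraries. Ep1 is the group marked as untreated, Ep2 was marked as exposed to particulate matter at 250 ug/mL, and PBS1 was marked as exposed at 500 ug/mL. Because PBS commonly stands for a buffer without treatment, the PBS1 title disagrees with that mark, and every pair of groups was compared under its titles. The table heads the PBS1 libraries as columns PBS1, PBS2 and PBS3. No exposure time or culture of origin is given, so the p-values measure the spread between libraries that may be technical replicates.

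The library totals used for FPKM lay between 12469849 and 13533480 fragments, as recovered from the deposited values by taking their smallest step as 1 fragment. Listed genes held 98.92% to 99.89% of these totals, which may therefore leave out fragments that were not assigned to a gene. Initiation factor genes were well covered: the fewest fragments of a tested one in any library was 176, for EIF1AD. Of 7 epithelial markers, KRT8, KRT19 and NKX2-1 were present, CDH1, KRT18 and CLDN4 were at most 0.135 FPKM in any library, and EPCAM was listed at 0. The summed level of the 7 markers was 336 to 435 FPKM in Ep1, 307 to 323 FPKM in Ep2 and 427 to 474 FPKM in PBS1. The Ep2 libraries thus lay below all others, while the ranges of Ep1 and PBS1 overlapped. The part of this level in the results below was not tested. In such bulk samples, fewer cells of a type and less RNA per cell cannot be told apart. The 4 endothelial markers summed to at most 0.0679 FPKM, the 4 leukocyte markers to at most 2.77 FPKM and the 6 fibroblast markers to at most 3.73 FPKM in any library.

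Levels spanned a wide range. EIF4A1, the main helicase of the cap-binding complex, was the most abundant at 1179.9, 1265 and 1155 FPKM in Ep1, 1146, 1209 and 1207 FPKM in Ep2, with 1133, 1142 and 1122 FPKM in PBS1, and it ranked 35th of all genes by mean level. EIF5A, a hypusine-bearing factor, and the non-canonical scaffold EIF4G2 followed, with means of 633 FPKM and 522 FPKM in Ep1. At the other end stood EIF2D, a factor that can deliver tRNA without EIF2, at 10.8 FPKM, EIF4E3 at 12.3 FPKM and EIF4ENIF1, the transporter that takes EIF4E into the nucleus, at 12.6 FPKM in Ep1. Of the 45 genes, 23 were among the 1000 with the highest mean level. The cap-binding protein EIF4E itself averaged 28.0 ± 2.61 FPKM in Ep1, 27.8 ± 1.02 FPKM in Ep2 and 28.5 ± 2.91 FPKM in PBS1 (SD, n = 3 each), below the levels of EIF4A1 and EIF4G1.

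**Figure D1:**
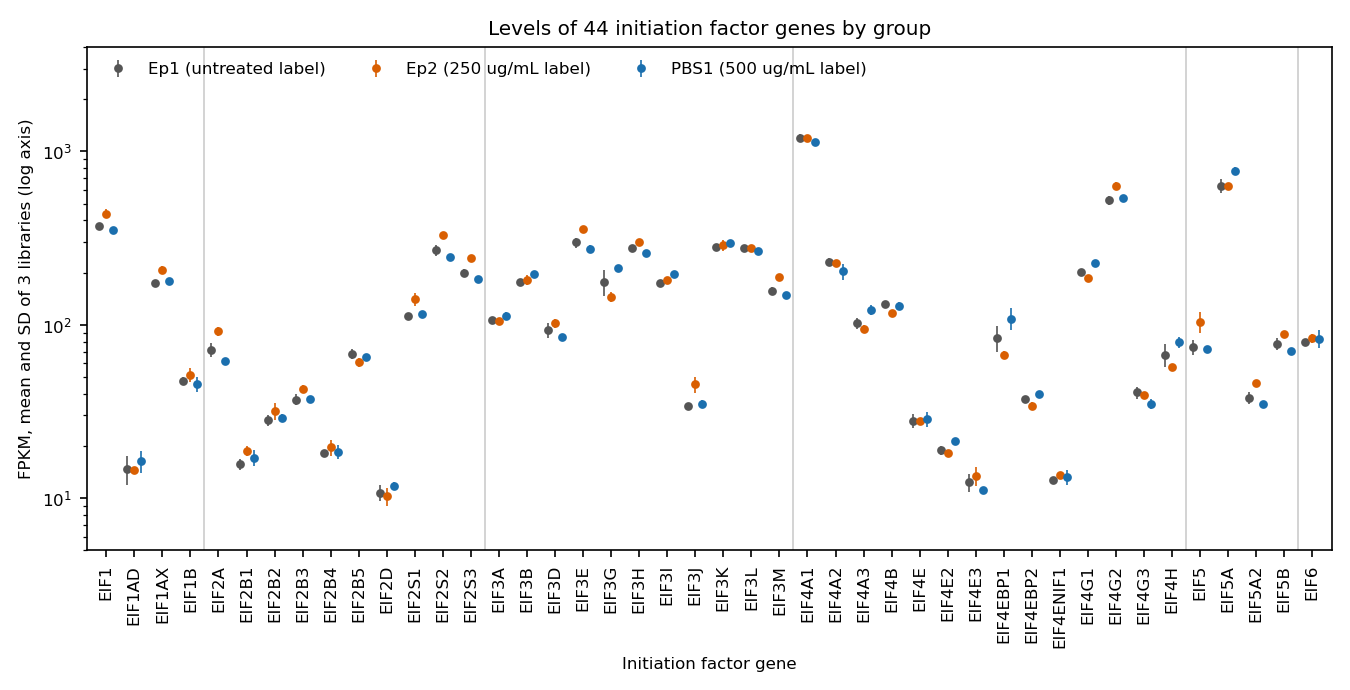
Mean level of the 44 tested initiation factor genes in FPKM on a log axis, with the SD of 3 libraries, for Ep1 (grey), Ep2 (orange) and PBS1 (blue); vertical lines separate the factor classes. EIF4A1 is the highest gene in every group and EIF4E lies near 28 FPKM in each.

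Subunits of one complex were not at equal levels. Among the EIF2 subunits, EIF2S2 (beta) was highest and EIF2S1 (alpha) lowest, 2.40-fold apart in Ep1, 2.36-fold in Ep2 and 2.13-fold in PBS1. Among the 5 EIF2B subunits, EIF2B5 (epsilon, the catalytic one) led and EIF2B1 (alpha) was lowest, 4.36-fold apart in Ep1, 3.25-fold in Ep2 and 3.81-fold in PBS1. Of the 11 EIF3 genes, EIF3J, which encodes a loosely bound subunit, was lowest in each group, at 34.0 FPKM in Ep1, 45.4 FPKM in Ep2 and 34.9 FPKM in PBS1. The highest was EIF3E in Ep1 and Ep2 and EIF3K in PBS1. The EIF3D value rests on a gene model of only 622 bases, the shortest of the 45, so its level relative to other subunits is uncertain. EIF3C, EIF3F and EIF4EBP3 are not analysed here.

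Between Ep2 and Ep1, 14 of the 44 genes rose in Ep2 and 1 fell, and 29 did not pass the test (limma on log2(FPKM + 1), adjusted p under 0.05 over all 11840 tested genes). That is 34.1% of the initiation factor genes, 31.8% higher and 2.27% lower, beside 27.4% of all tested genes (13.4% up and 14.0% down). The libraries of Ep2 and Ep1 did not overlap for 22 of the 44 genes, 16 higher and 6 lower in Ep2, beside 42.8% of all tested genes, 22.0% up and 20.8% down. The difference was above 0 for 27 of the 44, or 61.4%, beside 49.3% of all tested genes. Without Ep1_1, 12 genes were called, beside 15.6% of the 11779 genes then tested. The median log2 difference of the initiation factor genes was 0.09, against a median of -0.00352 over all tested genes. The changes were small, the largest called one being the 0.47 of EIF5. By class, 2 of 4 EIF1 genes rose, as did 5 of 10 EIF2 genes, 3 of 11 EIF3 genes, 1 of 14 tested EIF4 genes and 3 of 4 EIF5 genes. The gene that fell, EIF4B, is of class EIF4, and EIF6 was not called.

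Between PBS1 and Ep2, 8 of the 44 genes were higher and 16 lower in PBS1, and 20 did not pass. That is 54.5% of the initiation factor genes, 18.2% higher and 36.4% lower, beside 49.6% of all tested genes (25.4% up and 24.2% down). Without Ep1_1, 26 were called, beside 53.0% of the 11779 genes then tested. The libraries did not overlap for 29 of the 44, 10 higher and 19 lower in PBS1, beside 60.3% of all tested genes, 30.1% in each direction. The difference was above 0 for 17 of the 44, beside 50.3% of all tested genes. The total share is near that of all genes, while the split between directions was uneven, with a median log2 difference of -0.10 against 0.00235 over all tested genes. Lower in PBS1 were 2 of 4 EIF1 genes, 5 of 10 EIF2 genes, 5 of 11 EIF3 genes and 3 of 4 EIF5 genes. Of the 14 tested EIF4 genes, 6 were higher and 1 was lower in PBS1. This comparison shares its Ep2 libraries with the one before, so they are not independent, and each gene's values in both are given side by side below.

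**Figure D2:**
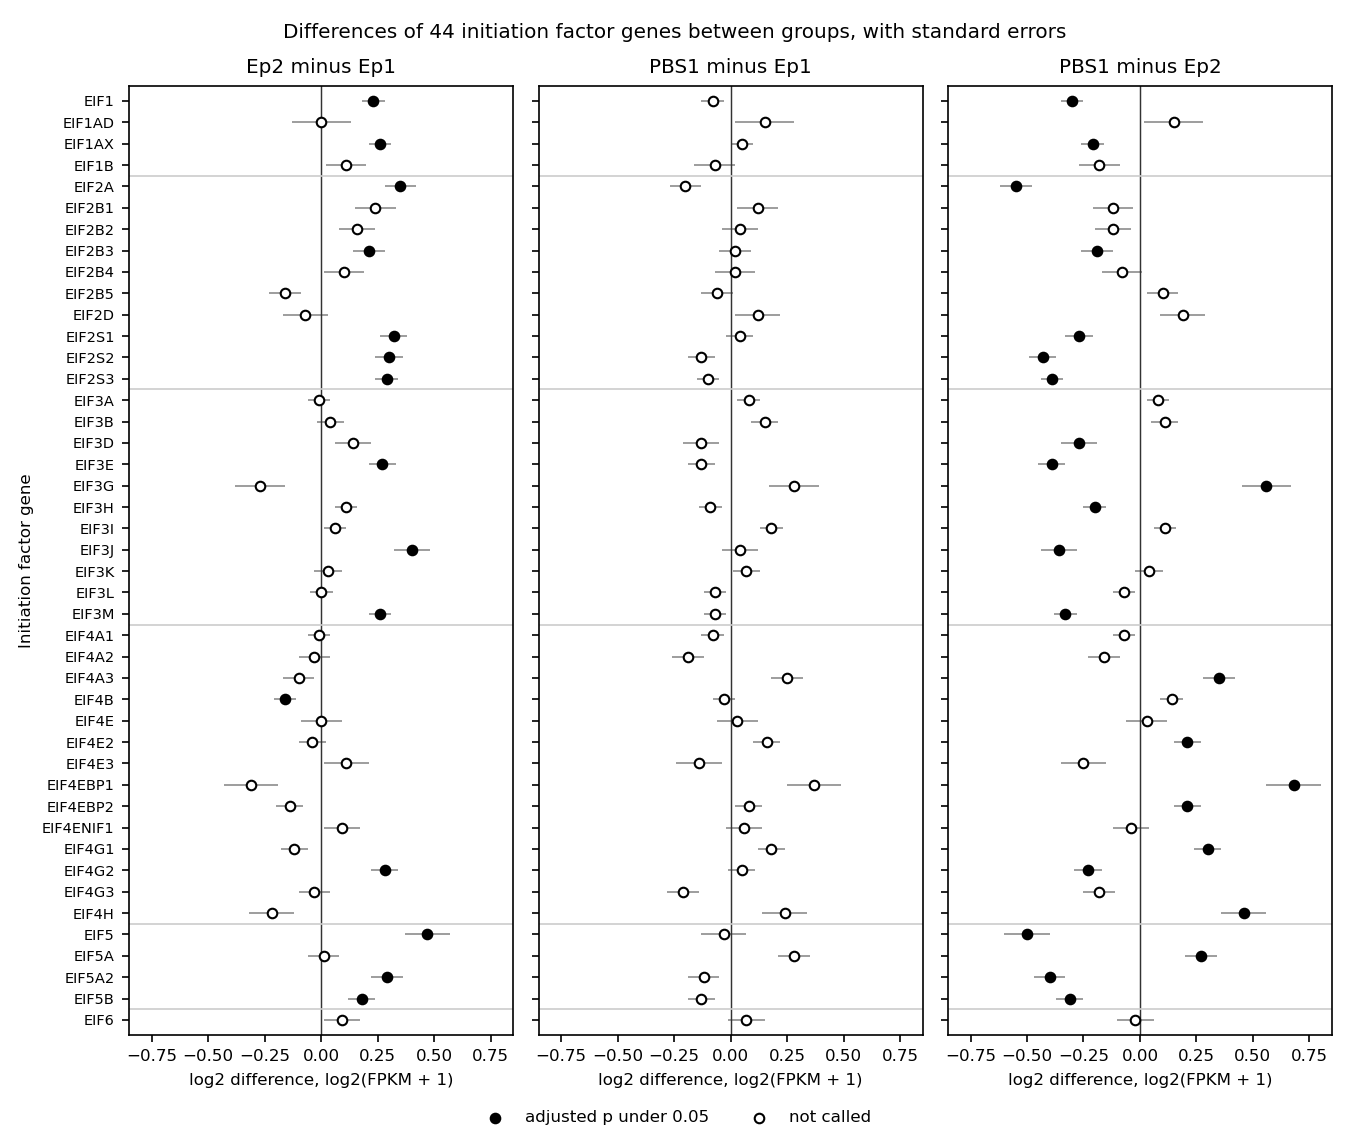
Log2 differences on the log2(FPKM + 1) scale with standard errors for the 44 tested genes, in 3 panels, one for each pair of groups (left, Ep2 minus Ep1; middle, PBS1 minus Ep1; right, PBS1 minus Ep2); filled points passed an adjusted p of 0.05 and horizontal lines separate the factor classes. In the left panel 14 filled points lie right of 0 and 1 left of it, in the middle panel none is filled, and in the right panel 8 lie right and 16 left of 0.

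Of the 3 genes that act in start codon selection, EIF1, EIF1AX and EIF1B, the first 2 rose in Ep2. EIF1, which guards against wrong start codons, measured 373, 365 and 383 FPKM in Ep1, 410.3, 438 and 464 FPKM in Ep2, with 353, 357 and 351 FPKM in PBS1. All Ep2 libraries lay above the others. The log2 difference was 0.23 for Ep2 minus Ep1 (SE 0.05, adjusted p = 0.0137, and 0.0646 without Ep2_3) and -0.30 for PBS1 minus Ep2 (SE 0.05, adjusted p = 0.0014). EIF1AX, which encodes EIF1A, rose in Ep2 by 0.26 (SE 0.05) and was lower in PBS1 than in Ep2, with a log2 difference of -0.21 (SE 0.05). EIF1B, a close paralogue of EIF1, averaged 47.6 ± 2.57 FPKM in Ep1, 51.6 ± 4.86 FPKM in Ep2 and 45.5 ± 4.54 FPKM in PBS1 and was called in no comparison.

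All subunits of EIF2 rose in Ep2. EIF2S2, the beta subunit, measured 247, 277 and 282 FPKM in Ep1, 326, 326 and 339 FPKM in Ep2, with 240.3, 245 and 251 FPKM in PBS1. EIF2S3, the GTP-binding gamma subunit, measured 186, 204 and 204 FPKM in Ep1, 243, 238 and 245 FPKM in Ep2, with 181, 179.7 and 192 FPKM in PBS1. For both genes the Ep2 libraries stood above all others, and the Ep1_1 library lay within the range of PBS1. The EIF2S2 log2 difference was 0.30 (SE 0.06) for Ep2 minus Ep1 and -0.43 (SE 0.06, adjusted p = 0.000481) for PBS1 minus Ep2, and that of EIF2S3 was 0.29 (SE 0.05, adjusted p = 0.00668) and -0.39 (SE 0.05, adjusted p = 0.00055). EIF2S1, the alpha subunit that stress kinases phosphorylate, differed by 0.32 (SE 0.06, adjusted p = 0.00795) and -0.27 (SE 0.06, adjusted p = 0.0052). The summed level of the 3 subunits was 579 ± 30.6 FPKM in Ep1, 712 ± 17.1 FPKM in Ep2 and 545 ± 15.1 FPKM in PBS1 (SD, n = 3 each). These calls held with any 1 library left out.

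EIF2A, a separate protein that can bind initiator tRNA and is unrelated to the EIF2 alpha subunit, showed the widest gap of class EIF2. It measured 64.7, 78.2 and 72.1 FPKM in Ep1, 84.8, 93.4 and 96.2 FPKM in Ep2, with 62.0, 62.0 and 62.3 FPKM in PBS1. No Ep2 library overlapped with another group, and the PBS1 libraries all lay below Ep1. The log2 difference was 0.35 (SE 0.07, adjusted p = 0.00885) for Ep2 minus Ep1 and -0.55 (SE 0.07, adjusted p = 0.000481) for PBS1 minus Ep2. EIF2D, with a related function, averaged 10.8 ± 1.11 FPKM in Ep1, 10.2 ± 1.21 FPKM in Ep2 and 11.8 ± 0.660 FPKM in PBS1 and was not called.

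Of the 5 EIF2B genes, whose products recharge EIF2 with GTP, 1 was called. EIF2B3 (gamma) measured 35.5, 35.3 and 40.2 FPKM in Ep1, 41.7, 45.0 and 41.9 FPKM in Ep2, with 39.3, 36.7 and 36.4 FPKM in PBS1. Its Ep2 libraries lay above the other groups by a narrow margin. Both of its calls were borderline: 0.21 (SE 0.07, adjusted p = 0.0397) for Ep2 minus Ep1 did not hold without Ep1_1, Ep1_2, Ep2_2, Ep2_3, column PBS2 or column PBS3, and -0.19 (SE 0.07, adjusted p = 0.036) for PBS1 minus Ep2 without Ep2_2, Ep2_3, column PBS2 or column PBS3. EIF2B5 averaged 60.9 ± 3.54 FPKM in Ep2 and 68.2 ± 4.55 FPKM in Ep1 (log2 difference -0.16, SE 0.07, adjusted p = 0.0872, and 0.0488 without Ep2_1). The remaining EIF2B1, EIF2B2 and EIF2B4 differed between Ep2 and Ep1 by 0.24, 0.16 and 0.10 and were not called; the first passed without Ep2_1 or column PBS1 (adjusted p = 0.0404 and 0.0454), the second without Ep2_1 (adjusted p = 0.0454).

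The EIF3 genes, subunits of the large scaffold that binds the small ribosomal subunit, were split. EIF3E measured 276, 304 and 315 FPKM in Ep1, 361, 356 and 357 FPKM in Ep2, with 262, 267 and 289 FPKM in PBS1. EIF3M measured 149, 158 and 164 FPKM in Ep1, 189, 179 and 196 FPKM in Ep2, with 151, 146 and 151 FPKM in PBS1. EIF3J measured 33.1, 35.2 and 33.6 FPKM in Ep1, 39.7, 48.3 and 48.1 FPKM in Ep2, with 32.8, 35.9 and 36.0 FPKM in PBS1. In each of these genes the Ep2 libraries were the highest and did not overlap with the others. The log2 differences for Ep2 minus Ep1 were 0.27 (SE 0.06), 0.26 (SE 0.05) and 0.40 (SE 0.08), with adjusted p = 0.0118, 0.00937 and 0.00732 for EIF3E, EIF3M and EIF3J. For PBS1 minus Ep2 they were -0.39 (SE 0.06), -0.33 (SE 0.05) and -0.36 (SE 0.08). EIF3J shares its locus with SPG11 on the other strand, a gene with a mean of 15.9 FPKM and a log2 difference of 0.07 between Ep2 and Ep1 and -0.28 between PBS1 and Ep2; without a stated strand setting, reads of overlapping genes cannot be told apart.

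EIF3G, an RNA-binding subunit, was higher in PBS1 than in Ep2. It measured 209, 173 and 148 FPKM in Ep1, 135, 143 and 155 FPKM in Ep2, with 218, 217 and 203 FPKM in PBS1. The PBS1 libraries lay above all of Ep2, while the Ep1 libraries were spread over the range of both groups, with Ep1_1 in the PBS1 range and Ep1_3 in the Ep2 range. The gene was called for PBS1 minus Ep2 (0.56, SE 0.11, adjusted p = 0.00198) and not for Ep2 minus Ep1 (-0.27, SE 0.11, adjusted p = 0.0742), although it passed without Ep1_3 (0.013), with voom on recovered fragments (0.0326) and after quantile normalization (0.0425). Lower in PBS1 than in Ep2 were EIF3D (log2 difference -0.27, SE 0.08) and EIF3H (-0.20, SE 0.05); the first call was lost without Ep2_3 (adjusted p = 0.0526) or column PBS1 (0.0515). EIF3A, EIF3B, EIF3I, EIF3K and EIF3L, which include the large core subunits, were called in no comparison, with log2 differences between -0.07 and 0.11 for PBS1 minus Ep2. The summed EIF3 level was 2053 ± 1.503 FPKM in Ep1, 2172 ± 41.3 FPKM in Ep2 and 2080.2 ± 32.2 FPKM in PBS1.

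**Figure D3:**
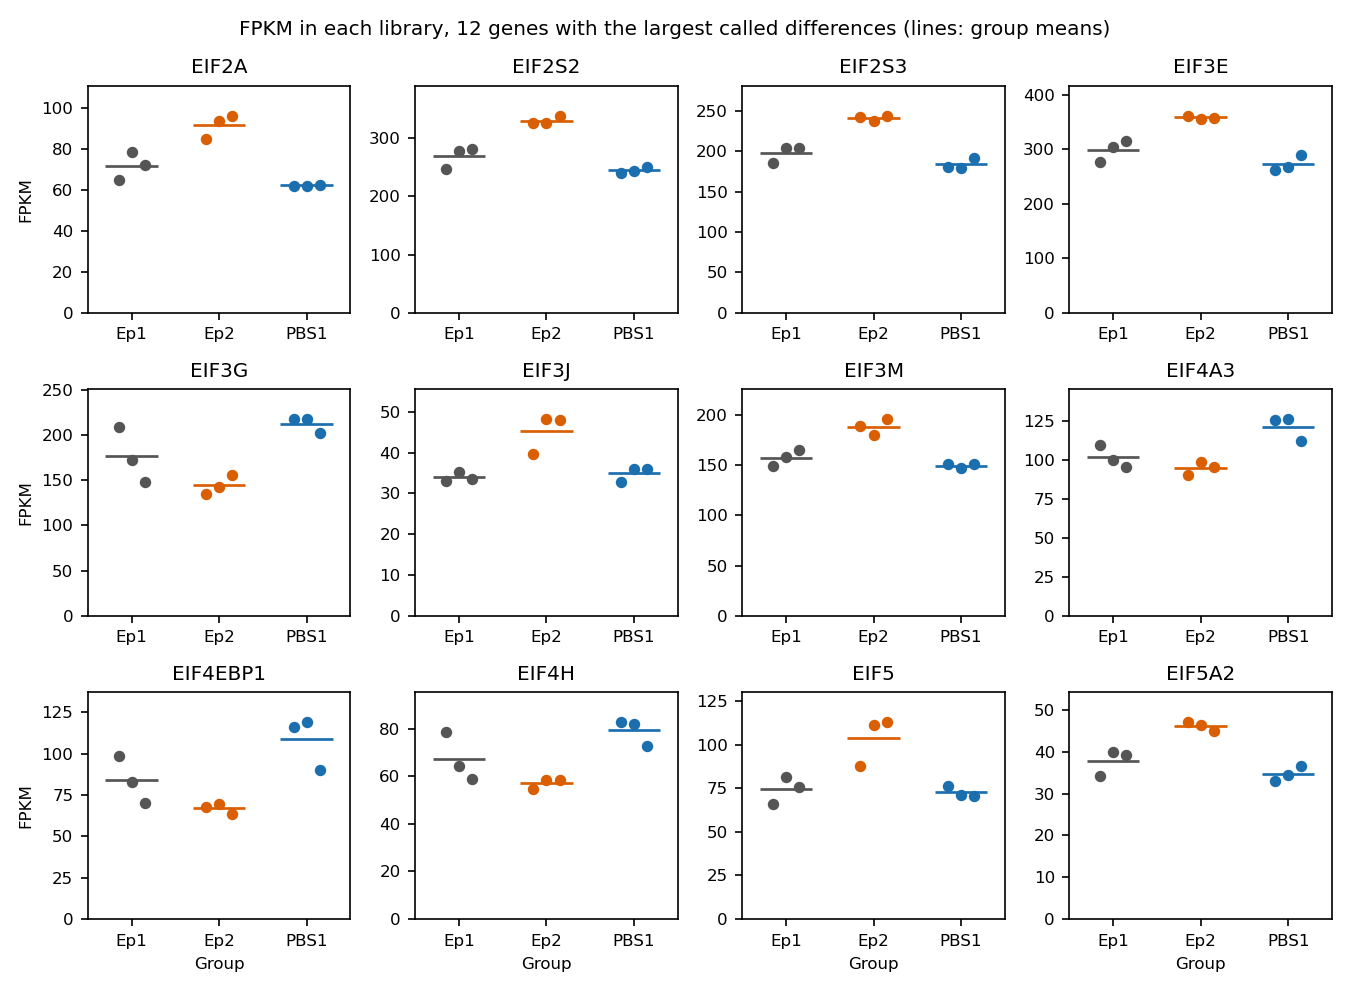
FPKM in each library for the 12 genes with the largest called differences, in Ep1 (grey), Ep2 (orange) and PBS1 (blue); points are libraries, lines are group means and each vertical axis starts at 0. EIF2A, EIF2S2, EIF2S3, EIF3E, EIF3J, EIF3M, EIF5 and EIF5A2 are highest in Ep2, whereas EIF3G, EIF4A3, EIF4EBP1 and EIF4H are highest on average in PBS1, with the Ep1 libraries spread widely in EIF3G, EIF4EBP1 and EIF4H.

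Within class EIF4 the genes that differed between PBS1 and Ep2 were mostly higher in PBS1. EIF4EBP1, the EIF4E-binding protein best known as an mTOR substrate, had the largest difference of all 44 genes. It measured 98.5, 82.7 and 70.3 FPKM in Ep1, 68.0, 69.5 and 63.6 FPKM in Ep2, with 116, 119 and 90.3 FPKM in PBS1. The PBS1 libraries lay above the Ep2 libraries without overlap, and Ep1_1 fell inside the PBS1 range. The log2 difference was 0.68 for PBS1 minus Ep2 (SE 0.12, adjusted p = 0.00166), -0.31 for Ep2 minus Ep1 (SE 0.12, adjusted p = 0.0889, but 0.0263 without Ep1_3 and 0.038 with the replicate number as a block) and 0.37 for PBS1 minus Ep1 (SE 0.12, adjusted p = 0.132). Its relative EIF4EBP2 measured 37.2, 36.7 and 38.7 FPKM in Ep1, 36.0, 32.4 and 33.6 FPKM in Ep2, with 39.5, 40.2 and 39.1 FPKM in PBS1. Here the PBS1 libraries lay above those of both other groups, and EIF4EBP2 differed by 0.21 (SE 0.06, adjusted p = 0.00982) for PBS1 minus Ep2. For Ep2 minus Ep1 it differed by -0.14 (SE 0.06) and did not pass (adjusted p = 0.0876, and 0.0426 without Ep2_1).

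Cofactors and relatives of the helicase differed as well. EIF4H, which stimulates EIF4A, measured 78.5, 64.4 and 58.7 FPKM in Ep1, 54.8, 58.3 and 58.3 FPKM in Ep2, with 82.8, 82.1 and 72.9 FPKM in PBS1. The Ep2 libraries were the lowest, and Ep1_1 again lay among the PBS1 libraries. The PBS1 minus Ep2 log2 difference was 0.46 (SE 0.10, adjusted p = 0.00288), and that of Ep2 minus Ep1 -0.22 (SE 0.10, adjusted p = 0.105, and 0.0297 without Ep1_3). EIF4A3, a helicase of the exon junction complex and not of the cap-binding complex, measured 109.9, 100.2 and 95.4 FPKM in Ep1, 90.3, 99.2 and 95.5 FPKM in Ep2, with 126, 127 and 112 FPKM in PBS1. Its PBS1 libraries lay above both other groups (PBS1 minus Ep2 0.35, SE 0.07, adjusted p = 0.00251). EIF4B, another cofactor of EIF4A, fell in Ep2 to 117 ± 4.92 FPKM, against 131 ± 1.93 FPKM in Ep1 (-0.16, SE 0.05, adjusted p = 0.0484). That call was lost without any 1 of the 9 libraries except Ep2_1 and column PBS3. EIF4A1 and EIF4A2 were called in no comparison. EIF4A2 averaged 231 ± 10.7 FPKM in Ep1, 227 ± 5.83 FPKM in Ep2 and 203 ± 21.4 FPKM in PBS1, and passed for PBS1 minus Ep2 only without column PBS3 (adjusted p = 0.00876) or under 3 other settings. It overlaps RFC4 on the other strand (mean 38.8 FPKM). By limma, RFC4 differed by 0.27 for Ep2 minus Ep1 (adjusted p = 0.0208) and by -0.30 for PBS1 minus Ep2 (adjusted p = 0.00586). Its part in the EIF4A2 values was not tested.

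The scaffold genes differed in opposite directions between PBS1 and Ep2. EIF4G1, the canonical scaffold, averaged 229 ± 8.78 FPKM in PBS1 and 185 ± 6.28 FPKM in Ep2 (0.30, SE 0.06, adjusted p = 0.00166), with 201 ± 9.71 FPKM in Ep1. EIF4G2, which lacks the EIF4E-binding part and serves cap-independent initiation, rose to 632 ± 35.7 FPKM in Ep2, against 522 ± 32.1 FPKM in Ep1 (0.28, SE 0.06, adjusted p = 0.0109, and 0.051 without Ep2_3), and was lower in PBS1 than in Ep2, with a log2 difference of -0.23 (SE 0.06, adjusted p = 0.0109). EIF4G3 was lower in PBS1 than in Ep2 without overlap but did not pass (-0.18, SE 0.07, adjusted p = 0.055). It passed under 6 alternatives, with adjusted p between 0.0214 without Ep1_1 and 0.0472 at a minimum of 5 FPKM. Of the cap-binding genes, EIF4E was not called under any setting, EIF4E3 did not pass (-0.25 for PBS1 minus Ep2, SE 0.10, adjusted p = 0.0672), and EIF4E2, which binds caps but not EIF4G and can repress translation, was higher in PBS1 than in Ep2 by 0.21 (SE 0.06, adjusted p = 0.0189), a call lost without Ep2_3, column PBS1 or column PBS2.

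In class EIF5, EIF5, the GTPase-activating protein for EIF2, had the largest rise in Ep2. It measured 66.1, 81.3 and 75.5 FPKM in Ep1, 87.6, 111 and 113 FPKM in Ep2, with 76.1, 71.3 and 70.7 FPKM in PBS1. Every Ep2 library exceeded every other, with Ep2_1 the nearest to the rest. The log2 difference was 0.47 for Ep2 minus Ep1 (SE 0.10, adjusted p = 0.00948) and -0.50 for PBS1 minus Ep2 (SE 0.10, adjusted p = 0.00264). EIF5B, the GTPase that joins the ribosomal subunits, averaged 77.8 ± 5.85 FPKM in Ep1, 88.1 ± 1.78 FPKM in Ep2 and 70.7 ± 1.88 FPKM in PBS1. It was lower in PBS1 than in Ep2, with a log2 difference of -0.31 (SE 0.06, adjusted p = 0.0022), whereas its call for Ep2 minus Ep1 (0.18, adjusted p = 0.049) was lost without any 1 of the 9 libraries except Ep1_3.

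The 2 EIF5A genes encode close paralogues that act in elongation as well as initiation. EIF5A2 measured 34.3, 39.8 and 39.2 FPKM in Ep1, 47.1, 46.4 and 45.0 FPKM in Ep2, with 33.1, 34.4 and 36.6 FPKM in PBS1. The Ep2 libraries were the highest (0.29, SE 0.07, adjusted p = 0.0138 for Ep2 minus Ep1, and -0.40, SE 0.07, adjusted p = 0.00113 for PBS1 minus Ep2). EIF5A measured 692, 629 and 579 FPKM in Ep1, 617, 632 and 654 FPKM in Ep2, with 800.2, 784 and 720.2 FPKM in PBS1. Here the PBS1 libraries were the highest, and Ep2 lay within the range of Ep1. EIF5A was called for PBS1 minus Ep2 (0.27, SE 0.07, adjusted p = 0.00803), though not after quantile normalization (adjusted p = 0.165). GPS2, which overlaps EIF5A on the other strand at a mean of 33.7 FPKM, differed by 0.07 in that comparison. EIF6, which keeps the large subunit from joining too early, measured 77.0, 82.4 and 77.5 FPKM in Ep1, 78.2, 87.5 and 86.1 FPKM in Ep2, with 92.1, 84.0 and 73.0 FPKM in PBS1, with overlapping groups and no call. How reads shared by paralogues such as EIF1 and EIF1B, EIF4A1 and EIF4A2, or EIF5A and EIF5A2 were assigned is not given in the sources used here.

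Between PBS1 and Ep1, 0 of the 44 genes passed limma's test, against 0.144% of all tested genes (0.0760% higher and 0.0676% lower in PBS1). An unadjusted p under 0.05 was reached by 13 of the 44, beside 2648 of all 11840 tested genes. With limma voom on recovered fragments 3 of the 44 passed, namely EIF4A3, EIF4G1 and EIF5A, beside 547 of all 11840. By limma on log2(FPKM + 1), the median log2 difference was 0.03, against 0.00265 over all tested genes. The difference was above 0 for 25 of the 44, beside 50.6% of all tested genes. The libraries of the 2 groups did not overlap for 13 genes, 8 higher and 5 lower in PBS1, against 23.7% of all tested genes, 12.8% higher and 10.9% lower. The widest differences were those of EIF4EBP1 (0.37), EIF3G (0.28) and EIF5A (0.28, SE 0.07, adjusted p = 0.0888) on the side of PBS1 and of EIF4G3 (-0.21) and EIF2A (-0.20) on the side of Ep1. The result depended on the Ep1_1 library, which lay nearer to the PBS1 mean than to the mean of Ep1_2 and Ep1_3 for 26 of 44 initiation factor genes (59.1%) and for 62.1% of all tested genes. That position was not counted for Ep1_2 or Ep1_3, and it sets a mean of 3 libraries against a mean of 2, so these shares do not set Ep1_1 apart. Without Ep1_1, 13 genes were called, against 16.0% of the 11779 genes then tested, 8 higher and 5 lower in PBS1. Higher were EIF3G, EIF3I, EIF4A3, EIF4E2, EIF4EBP1, EIF4G1, EIF4H and EIF5A, and lower were EIF2A, EIF2S2, EIF3E, EIF4G3 and EIF5B. The median log2 difference of the 44 genes was then 0.0103, and the cause of the added calls was not tested.

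Levels of related genes were also set against each other within a library, for 13 pairs chosen after their values had been seen and therefore without a test. The groups did not overlap for 4 of the 13 ratios between Ep2 and Ep1, for 3 between PBS1 and Ep1 and for 8 between PBS1 and Ep2. For the levels of single genes, the groups did not overlap for 42.8%, 23.7% and 60.3% of all tested genes in that order. The share over other pairs of genes was not computed, so these counts do not set the 13 ratios apart. The ratios of EIF4A1 to EIF4A2, EIF1 to EIF1B and EIF5 to EIF5B overlapped in every comparison. The 4 described here all separate PBS1 from Ep2. The ratio of EIF4EBP1 to its target EIF4E was 3.86, 2.98 and 2.29 in Ep1, 2.51, 2.53 and 2.20 in Ep2 and 4.53, 3.78 and 3.18 in PBS1. PBS1 lay above Ep2 in all libraries, and Ep1 overlapped with both. The ratio of EIF4G1 to EIF4G2 was 0.431, 0.366 and 0.364 in Ep1, 0.302, 0.291 and 0.289 in Ep2 and 0.424, 0.435 and 0.413 in PBS1, so every Ep2 library lay below every other. For EIF5A to EIF5A2 the means were 16.9 ± 2.86 in Ep1, 13.8 ± 0.725 in Ep2 and 22.2 ± 2.31 in PBS1. The EIF3E to EIF3G ratio averaged 1.74 ± 0.405 in Ep1, 2.49 ± 0.187 in Ep2 and 1.29 ± 0.122 in PBS1, so the relative amounts of 2 subunit mRNAs of the same complex differed between groups without overlap of Ep2 with the others.

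**Figure D4:**
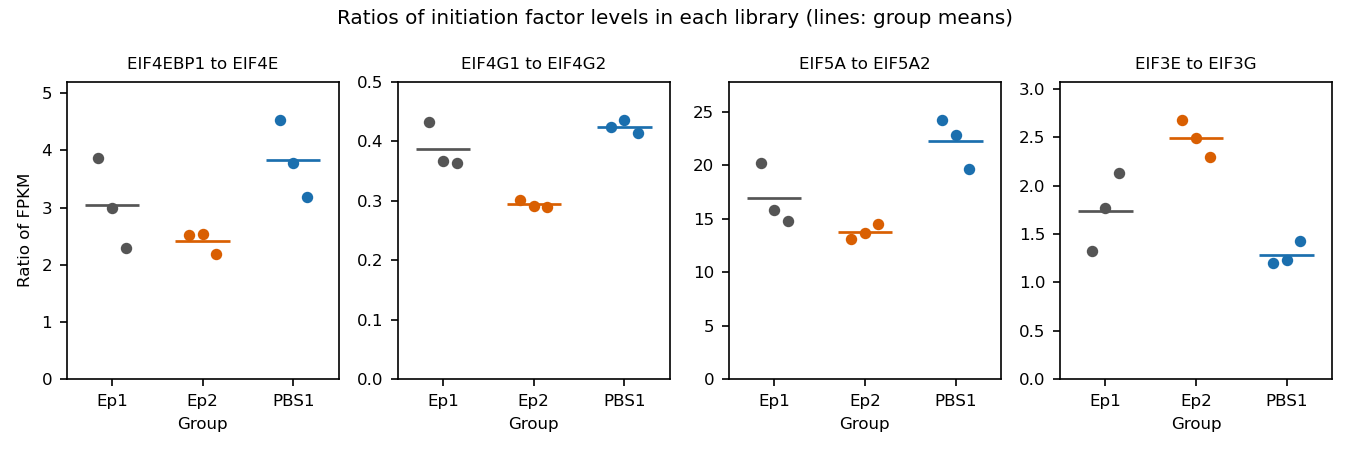
Ratios of FPKM in each library for EIF4EBP1 to EIF4E, EIF4G1 to EIF4G2, EIF5A to EIF5A2 and EIF3E to EIF3G, in Ep1 (grey), Ep2 (orange) and PBS1 (blue); points are libraries, lines are group means and axes start at 0. The EIF4G1 to EIF4G2 ratio of Ep2 lies near 0.29, below every library of Ep1 and PBS1, and the EIF3E to EIF3G ratio of Ep2 lies above every other library.

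The wider initiation pathway was read from a list of 48 genes that act on or beside these factors, of which 47 have a row and were tested. The list and its parts were chosen with earlier results of these data known, so their counts are descriptions. In Ep2 against Ep1, 10 rose and 11 fell, beside 13.4% and 14.0% of all tested genes, 27.4% together. For PBS1 minus Ep2, 11 were higher and 15 lower in PBS1, beside 25.4% and 24.2% of all tested genes, 49.6% together. PBS1 minus Ep1 gave 0 calls by limma, with 6 of the 47 genes at an unadjusted p under 0.05, beside 2648 of all 11840 tested genes. The median log2 differences were 0.07, -0.05 and -0.02 in that order. Of 11 accessory proteins of scanning, recycling and mRNA binding, 6 rose in Ep2 and 0 fell (all tested genes 13.4% up and 14.0% down), and 9 were lower and 0 higher in PBS1 than in Ep2 (all tested genes 24.2% and 25.4%). ABCE1, which splits ribosomes for reuse, averaged 84.5 ± 4.20 FPKM in Ep1, 104 ± 3.07 FPKM in Ep2 and 78.3 ± 1.78 FPKM in PBS1. BZW1, a protein that mimics EIF5, averaged 205 ± 15.1 FPKM in Ep1, 261 ± 15.6 FPKM in Ep2 and 210.04 ± 9.35 FPKM in PBS1. MCTS1, the partner of DENR in re-initiation, differed by 0.45 (SE 0.09) between Ep2 and Ep1.

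In the mTOR complex arm of 13 genes, 6 fell in Ep2 against Ep1 and 1 rose, beside 14.0% and 13.4% of all tested genes. In PBS1, 6 were higher and 1 lower than in Ep2, beside 25.4% and 24.2% of all tested genes. LARP1, which binds mRNAs of the translation machinery under mTOR control, averaged 81.6 ± 3.56 FPKM in Ep1, 65.0 ± 5.30 FPKM in Ep2 and 86.9 ± 5.65 FPKM in PBS1. Both kinds of member were among those that fell, since MTOR itself (-0.26, SE 0.07) and its inhibitors TSC2 (-0.21), SESN2 (-0.36) and DDIT4 (-0.45) were lower in Ep2, while its activator RHEB was higher (0.25, SE 0.05). Of the 4 EIF2 kinase genes, 0 were called between Ep2 and Ep1. An unadjusted p under 0.05 was reached by 1 of them, beside 4893 of all 11840 tested genes. EIF2AK2, the kinase activated by double-stranded RNA, was lower in PBS1 than in Ep2, with a log2 difference of -0.51 (SE 0.13, adjusted p = 0.00679). Kinase cofactors and EIF2 phosphatase genes, 6 in all, went both ways between Ep2 and Ep1, with 2 higher, 2 lower and a median log2 difference of 0.01. The phosphatase catalytic subunits PPP1CB (0.27, SE 0.06) and PPP1CC (0.21, SE 0.05) rose, and their relative PPP1CA fell (-0.32, SE 0.07). PPP1R15A, which directs phosphatase to EIF2 alpha, averaged 10.6 ± 1.19 FPKM in Ep1, 8.06 ± 0.685 FPKM in Ep2 and 11.6 ± 0.168 FPKM in PBS1 and fell in Ep2 by 0.35 on the log2 scale (SE 0.09, adjusted p = 0.0146). ATF4, the transcription factor whose translation rises when EIF2 is phosphorylated, averaged 256 ± 14.3 FPKM in Ep1, 213 ± 4.34 FPKM in Ep2 and 244 ± 4.09 FPKM in PBS1 (Ep2 minus Ep1 -0.26, SE 0.05, adjusted p = 0.00771). Of the other stress response genes, DDIT3 and TRIB3 were called in no comparison, and ASNS, which makes asparagine, differed on the other side from ATF4, with 0.16 for Ep2 minus Ep1 (SE 0.06, adjusted p = 0.0704) and -0.25 for PBS1 minus Ep2 (SE 0.06, adjusted p = 0.00564).

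Across the 44 genes Spearman's rho between length and log2 difference was -0.08 for Ep2 minus Ep1, -0.03 for PBS1 minus Ep2 and -0.13 for PBS1 minus Ep1, against 0.06, -0.16 and -0.23 across all tested genes; the genes share their libraries, so these are descriptions. The 45 genes lie on 37 scaffolds of the assembly that the table names, and 8 of them overlap another listed gene, each on the opposite strand.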

How the data were processed

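RNA sequencing of 9 libraries in 3 groups of 3 was read from 1 table of FPKM that the authors deposited, per the file headers. Groups are those of the titles; the Ep columns match single titles, whereas the PBS columns match the PBS1 group only. The submitters' processing notes list Bowtie 0.12.2 with mm8, a build of the mouse, whereas the table names ferret scaffolds, so no coordinates are printed. Counting tool, annotation and strand setting: not given in the sources used here. Fragments were recovered from FPKM and gene length (100% of values above 0 whole within 0.02). No sequences were used.

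Genes reaching 1 FPKM in 3 or more libraries (11840) were fitted by limma 3.58.1 (R 4.3.3) to log2(FPKM + 1), all 9 libraries together and 1 mean a group, using the intensity trend, with Benjamini-Hochberg adjustment across these genes. Differences on this scale understate changes of low genes. Per-library values are given for the 12 genes with the largest called differences, the most abundant gene of each class, and called EIF2B and EIF4E-binding protein genes; other called genes are named with their difference. The rule for members used names only, but the rule, the lists and the alternatives were set with earlier results of these data known. Same-numbered Ep libraries were not treated as pairs.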

Additional observations from a re-analysis of the deposited data

How the results depend on the processing

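The count of initiation factor genes called stayed within 1.5 times its value under every alternative for Ep2 minus Ep1 (10 to 18 over libraries left out, 12 to 16 otherwise) and for PBS1 minus Ep2 (21 to 26, and 23 to 30). Among all tested genes, whose number differed between settings, the counts were 1258 to 3417 and 2213 to 3672 for Ep2 minus Ep1. For PBS1 minus Ep2 they were 4498 to 6237 and 5189 to 6204. The 10 arose without Ep2_3, beside 1258 of 11779 genes, and the 18 without Ep2_1, beside 3417 of 11782. For PBS1 minus Ep1 the count of initiation factor genes was 0, but 3 with voom on recovered fragments, 14 without both Ep1_1 and Ep2_1, and between 0 and 13 with 1 library left out, the highest without Ep1_1. The median log2 difference for PBS1 minus Ep1, 0.0318, was -0.00916 after quantile normalization, -0.00651 with the gene length trend removed, and -0.00489 to 0.0414 with 1 library left out. For PBS1 minus Ep2, -0.101, it was -0.133 after quantile normalization, -0.147 with the length trend removed, -0.146 without both Ep1_1 and Ep2_1 and -0.146 to -0.069 with 1 library left out; for Ep2 minus Ep1, 0.088, it was 0.0616 to 0.104. The cause of these shifts was not tested. Of the 14 genes called higher in Ep2 than in Ep1, 10 stayed called with any 1 library left out, and of the 8 higher and 16 lower in PBS1 than in Ep2, 7 and 14. The same share among all called genes was not computed, so these counts do not set apart the initiation factor genes. The count called lower in Ep2 than in Ep1, 1, was 0 to 3 over libraries left out and 0 to 2 otherwise. For that comparison EIF2B3, EIF4B and EIF5B also lost their calls with no filter on low values, with no intensity trend, in the 6 Ep libraries alone and without both Ep1_1 and Ep2_1. Not called for PBS1 minus Ep2 but passing under at least 1 alternative were EIF1B, EIF2B2, EIF2B5, EIF2D, EIF3L, EIF4A1, EIF4A2, EIF4B, EIF4E3 and EIF4G3. No gene reversed a call.

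Over all tested genes, 3240 were called for Ep2 minus Ep1 (1839 without Ep1_1, 1499 without Ep2_2, 1258 without Ep2_3). The 17 called for PBS1 minus Ep1 became 79 where 5 FPKM was required, 0 where no low gene was left out, 39 with the length trend removed, 11 with the intensity trend off, 547 with voom, 2294 without both Ep1_1 and Ep2_1, and 0 to 1887 with 1 library left out. With the replicate number as a block on the 6 Ep libraries, 13 initiation factor genes were called for Ep2 minus Ep1, beside 2917 of all 11840 tested genes. In the same libraries with no block, 12 initiation factor genes were called, beside 2317 of all 11840. The added initiation factor gene was EIF4EBP1. Deviations of same-numbered libraries correlated at 0.152, 0.072 and 0.065, and the PBS columns carry no such number. The least covered tested initiation factor gene had 176 fragments in a library.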
